A study of Homo sapiens with 48 samples.

Results

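Collagen genes were taken as the genes whose symbol is COL followed by a number, the letter A and a number. The count table listed 43 of them among 19847 rows, and 33 had at least 500 counts summed over the 48 libraries, the minimum at which 13175 genes were tested. The 10 collagen genes under that minimum were COL28A1 with 342 counts in total, COL2A1 with 249, COL25A1 with 147, COL23A1 with 46, COL4A4 with 35, COL29A1 (now COL6A5) with 32, COL20A1 with 18, COL6A6 with 8, COL9A1 with 7 and COL4A3 with 0. COL10A1, COL17A1, COL19A1 and COL22A1 passed the minimum through libraries of 4OHT-treated cells, and COL8A2 and COL21A1 through those of DMSO-treated cells. Counts over the 33 genes therefore describe those genes and not all collagens.

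The cells were IMR90 ER:RAS, a line of human lung fibroblasts that carries HRAS G12V fused to the ligand-binding domain of the oestrogen receptor, so that 4-hydroxytamoxifen (4OHT) switches on RAS and drives the cells into senescence. All 6 groups shared this line and a medium with 0.5% FBS. Cells had received DMSO, the solvent, or 4OHT for 6 days, were then given siRNAs, either non-targeting (siNT) or aimed at SF3B1 (siSF3B1) or at RBM39 (siRBM39), and were collected 2 days later. Each group held 8 libraries, from 2 siRNAs with 4 replicates each. SF3B1 is the U2 snRNP protein that holds the branch site near the 3′ end of introns, and RBM39 is a splicing factor related to the U2AF large subunit. All groups come from 1 line, so a difference here is one between cultures of that line.

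Collagens are secreted proteins whose chains wind in threes into a helix with glycine as the first residue of each triplet. Fibrillar collagens (I, III, V, XI, XXIV and XXVII) form the fibres that give tissue its tensile strength, and collagen I is the chief product of fibroblasts. Collagen IV forms the sheet of basement membranes, collagen VI beaded filaments around cells, and collagen VII the fibrils that anchor epithelium. FACIT collagens sit on the surface of fibres, multiplexins lie at basement membranes, and the transmembrane collagens stay in the cell membrane. In fibrillar collagens most of the helix is coded by many short exons that each hold whole glycine triplets.

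Library totals ranged from 31467221 to 52734636 counts. SF3B1 stood at 9.35% of siNT after siSF3B1 in DMSO and at 8.32% in 4OHT, and RBM39 at 16.0% and 13.5% after siRBM39. RBM39 itself rose to 182% and 209% of siNT after siSF3B1. Levels are given in CPM, counts scaled to library size, after TMM for single genes and without TMM for sums of markers. Of 8 fibroblast markers, VIM and 7 others, none was at 0 in any group. The 3 immune markers summed to at most 0.184 CPM and 2 endothelial markers to at most 1.79 CPM. The library 4OHT siRBM39-08 replicate 4 stood apart, with a summed level of 3 epithelial markers of 31.3 CPM against a median of 3.15 CPM in its group, and results that rest on it are given with and without it. DMSO siRBM39-06 replicate 1 was the next least like its group, with a median correlation of 0.984 against at least 0.9903 for the other 7 libraries.

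Collagen transcripts made up a large part of the RNA of uninduced cells and a smaller one after RAS activation. In DMSO siNT they took 7.69% to 8.41% of all counts (median 8.05%), and in 4OHT siNT 3.43% to 3.69% (median 3.60%), so the groups did not overlap. The knockdown groups in DMSO had medians of 6.94% (siSF3B1) and 7.19% (siRBM39), and those in 4OHT 3.19% and 3.39%. The highest share in 4OHT siRBM39, 4.71%, was that of siRBM39-08 replicate 4.

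Compared per length, on the deposited cRPKM scale (reads scaled to library depth and to the uniquely mappable length of the transcript), the most abundant collagen mRNAs of DMSO siNT cells were COL1A1 with a median of 3939 cRPKM, COL1A2 with 2666, COL6A1 with 1706, COL6A2 with 1518, COL3A1 with 1086 and COL6A3 with 977. Collagen I led this order, followed by collagens VI and III. In 4OHT siNT the order was COL6A2 with 1923 cRPKM, COL6A1 with 1709, COL1A1 with 928, COL6A3 with 538, COL4A1 with 302, COL4A2 with 284 and COL1A2 with 251, so collagen VI stood first. COL3A1 had gone from 1086 to 109 cRPKM.

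RAS activation was followed by a rise of 12 of the 33 collagen genes and a fall of 19, while COL6A1 and COL4A6 did not pass the test (4OHT siNT against DMSO siNT, edgeR adjusted p under 0.05). The shares are 36.4% up and 57.6% down, beside 37.1% up and 40.4% down among all 13175 genes. The median log2 fold change was −0.85 over the collagen genes and −0.03 over all genes, and over the 25 collagen genes with at least 10000 counts it was −0.35. These are bulk libraries, in which fewer cells of a kind and less RNA per cell cannot be told apart. The fibroblast markers moved as well: 7 of 8 fell, with DCN at −5.02 and VIM at 0.03 on the log2 scale, and their summed level went from 10450 to 10840 CPM in DMSO siNT to 7277 to 7603 CPM in 4OHT siNT. Their part in the collagen result was not tested.

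**Figure D1:**
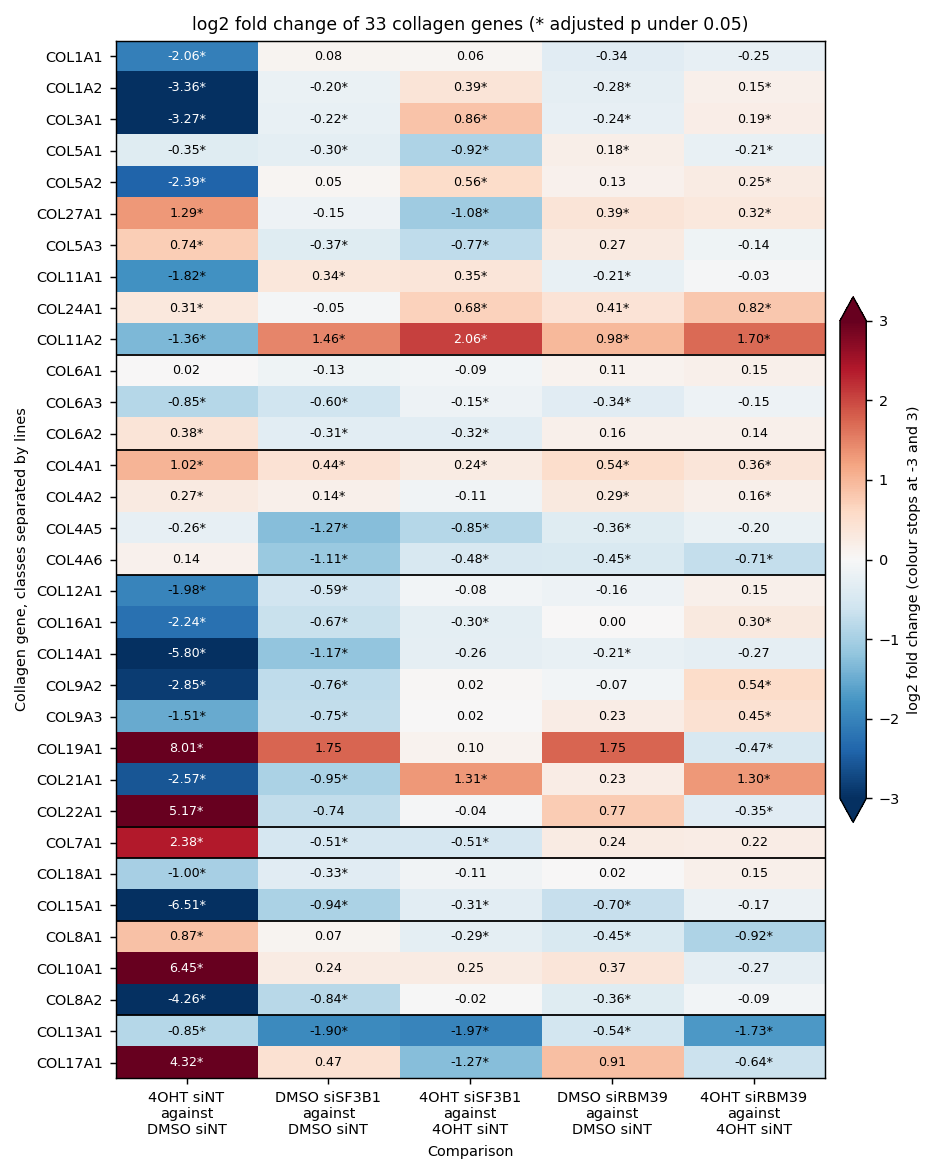
Heat map of the log2 fold changes of the 33 collagen genes (rows, with lines between the classes) in the 5 comparisons of 2 groups (columns), with the value in each cell, a star where the edgeR adjusted p was under 0.05, and colours that stop at −3 and 3. The RAS column spans −6.51 for COL15A1 to 8.01 for COL19A1, while the called values of the knockdown columns span −1.97 (COL13A1) to 2.06 (COL11A2).

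Among the fibrillar collagens 7 of 10 fell, among them all of those that make up collagens I and III. COL1A1, the major chain of collagen I, ranged from 23570 to 29280 CPM in DMSO siNT (median 25370) and from 5838 to 6381 CPM in 4OHT siNT (median 6173), a log2 fold change of −2.06 ± 0.16 (SE, n = 8 against 8, edgeR adjusted p = 8.2e-16). COL1A2, the other chain of collagen I, went from 12780 to 14540 CPM (median 13810) to 1210 to 1437 CPM (median 1338), or 9.74% of the control. COL3A1, the chain of collagen III, went from 5495 to 6135 CPM (median 5758) to 539 to 635 CPM (median 598), or 10.4%. No library of 4OHT siNT reached the range of DMSO siNT for any of these 3 genes.

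The collagen V and XI chains did not move alike. COL5A2 fell by 2.39 on the log2 scale and COL11A1 by 1.82, COL11A2 by 1.36 and COL5A1, which joins COL5A2 in the collagen V that nucleates fibres, by 0.35. COL5A3, another chain of collagen V, rose by 0.74, and the minor fibrillar collagens COL27A1 and COL24A1 rose by 1.29 and 0.31. COL27A1 went from a median of 61.8 CPM to 149 CPM.

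Of the 4 collagen IV genes 2 rose and 1 fell, and of the 3 collagen VI genes 1 rose and 1 fell. COL4A1, the major basement membrane chain, rose from a median of 951 to 1942 CPM with no overlap between the groups (log2 fold change 1.02 ± 0.07, SE), COL4A2 by 0.27, and COL4A5 fell by 0.26. COL7A1, the anchoring-fibril collagen, rose from 173 to 239 CPM (median 220) to 1035 to 1240 CPM (median 1137), a 5.20-fold difference. For collagen VI, COL6A2 rose by 0.38 and COL6A3 fell by 0.85, while COL6A1 had medians of 6885 and 7123 CPM and an adjusted p of 0.86.

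The largest changes in either direction lay in FACIT, short-chain, multiplexin and transmembrane collagens. COL15A1, a multiplexin, went from 201 to 214 CPM (median 205) to 1.75 to 3.02 CPM (median 2.30), or 1.10% of the control. COL14A1, a FACIT collagen bound to collagen I fibres, went from 70.7 to 88.1 CPM (median 79.6) to 1.03 to 1.94 CPM (median 1.39), or 1.79%. COL8A2, a short-chain network collagen, had 943 counts over the 8 DMSO siNT libraries and 47 over the 8 4OHT siNT libraries, a ratio of 0.0497 with a 95% counting interval of 0.0363 to 0.0667. These 3 genes had no overlap between the groups.

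COL10A1, the short-chain collagen known from cartilage that turns to bone, was the highest of the genes that rose from near 0. It went from 0.183 to 0.759 CPM (median 0.273) to 28.1 to 35.9 CPM (median 31.2), a log2 fold change of 6.45 ± 0.23 (SE). COL19A1, a FACIT collagen, had 3 counts in DMSO siNT, all of them in DMSO siNT2 replicate 2, and 1012 counts in 4OHT siNT, a ratio of 337 with a counting interval of 115 to 1635. COL22A1, a FACIT collagen of muscle-tendon junctions, had 18 and 666 counts (ratio 36.9, interval 23.2 to 62.7), and COL17A1, the transmembrane collagen of hemidesmosomes, 11 and 232 counts (ratio 21.1, interval 11.6 to 42.8). The intervals cover counting error only. Even after the rise, the medians of COL19A1, COL22A1 and COL17A1 in 4OHT siNT were 3.00, 2.13 and 0.748 CPM.

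The remaining FACIT collagens fell: COL9A2 by 2.85, COL21A1 by 2.57, COL16A1 by 2.24, COL12A1 by 1.98 and COL9A3 by 1.51 on the log2 scale. COL12A1 was the most abundant of them, with medians of 2659 CPM in DMSO siNT and 684 CPM in 4OHT siNT. COL18A1, the multiplexin that holds endostatin, fell by 1.00 and the transmembrane collagen COL13A1 by 0.85. COL8A1, the partner of COL8A2, rose by 0.87.

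**Figure D2:**
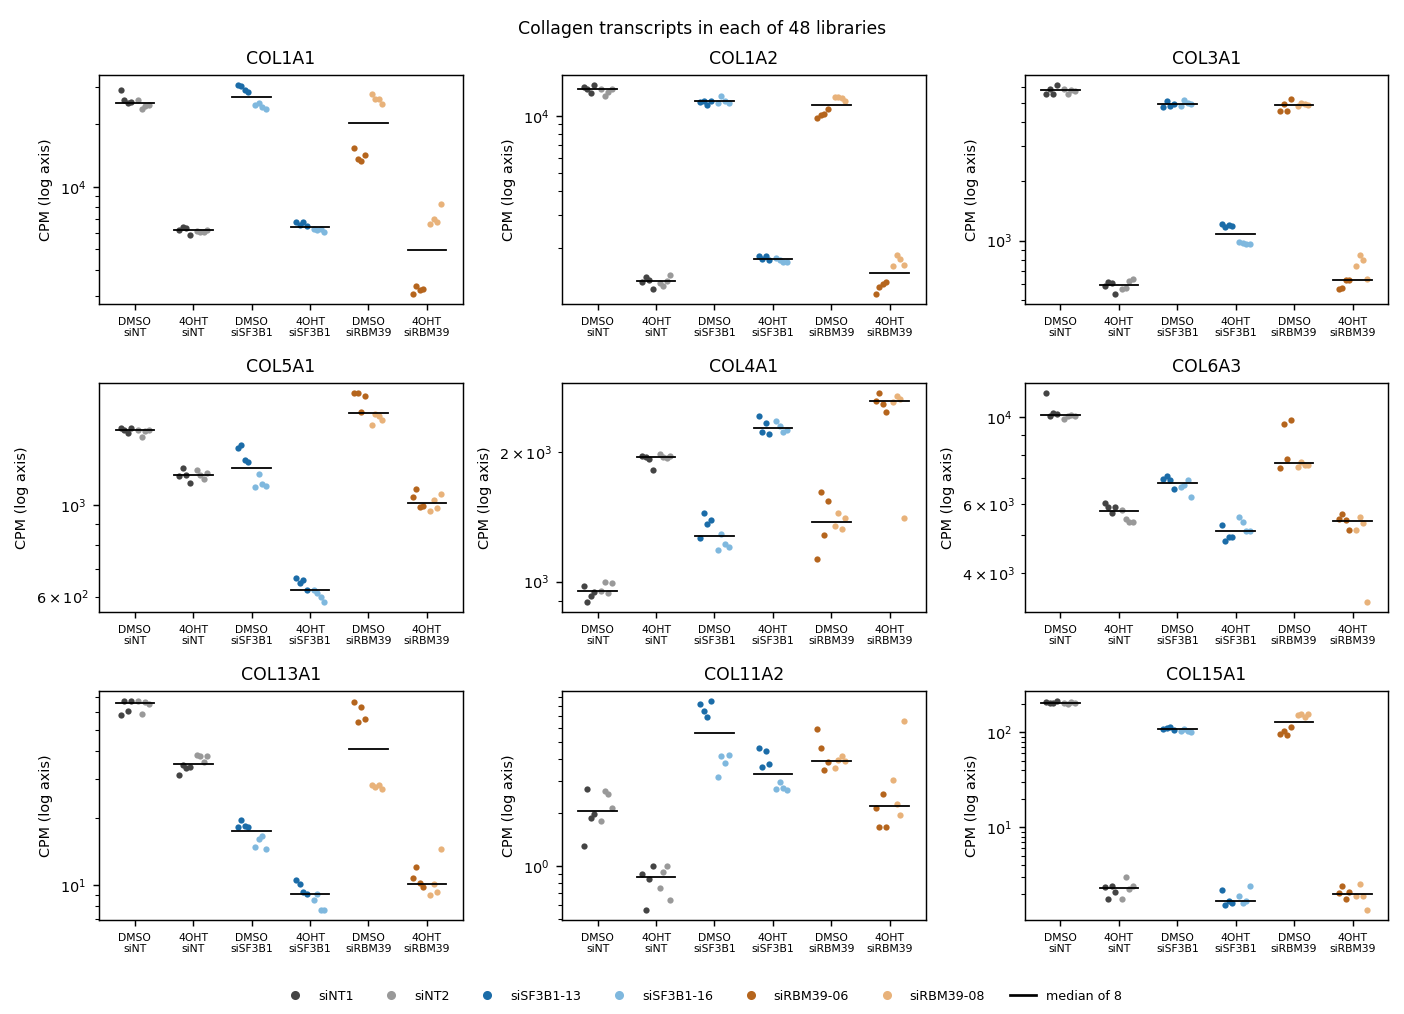
CPM in each of the 48 libraries (points, log axis) for 9 collagen genes named in the text, by group, with the median of the 8 libraries as a line and the 2 siRNAs of each group in different colours. COL1A1, COL1A2 and COL3A1 stand lower in all 4OHT groups than in the DMSO groups, COL4A1 stands at medians of 951 CPM in DMSO siNT and 1942 CPM in 4OHT siNT, and COL13A1 is low in both siSF3B1 groups.

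Knockdown of SF3B1 lowered most of the collagen genes that changed in uninduced cells. In DMSO, 4 of 33 rose and 19 fell (12.1% and 57.6%, beside 33.9% and 37.3% of all genes), with a median log2 fold change of −0.31 over the collagen genes and −0.01 over all genes. In 4OHT, 8 rose and 13 fell (24.2% and 39.4%, beside 36.5% and 37.3% of all genes), with medians of −0.09 and 0.00. The comparisons of siSF3B1 and siRBM39 within a treatment share their siNT libraries. The same 3 genes rose and 15 fell with both siSF3B1 siRNAs in DMSO, and 8 rose and 8 fell with both in 4OHT. Agreement between the siRNAs was not counted over all genes, so no background share stands beside these counts. With siSF3B1-13 alone 4231 of all 13175 genes rose and 4807 fell in DMSO, and 4559 and 4713 in 4OHT. With siSF3B1-16 alone the numbers were 3951 and 4422, then 4204 and 4536.

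COL13A1, a transmembrane collagen, fell most of the 33 after siSF3B1 under both treatments. It went from 58.1 to 67.3 CPM (median 65.9) in DMSO siNT to 14.6 to 19.6 CPM (median 17.4), and from 31.2 to 38.4 CPM (median 35.2) in 4OHT siNT to 7.75 to 10.5 CPM (median 9.12). The log2 fold changes were −1.90 ± 0.14 and −1.97 ± 0.14 (SE), and the groups did not overlap.

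The minor basement membrane chains COL4A5 and COL4A6 fell together. COL4A5 went from 212 to 256 CPM in DMSO siNT (median 240) to 77.4 to 124 CPM (median 96.5), and from 190 to 212 CPM (median 198.7) to 90.9 to 131 CPM (median 110) in 4OHT. COL4A6 fell by 1.11 in DMSO and by 0.48 in 4OHT on the log2 scale. COL4A1 moved the other way, with a rise of 0.44 in DMSO, from 899 to 997 CPM to 1185 to 1446 CPM, and of 0.24 in 4OHT.

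COL11A2, a fibrillar collagen best known from cartilage, rose most of the genes called. It went from 1.29 to 2.72 CPM (median 2.04) to 3.19 to 8.55 CPM (median 5.6) in DMSO and from 0.566 to 0.997 CPM (median 0.868) to 2.70 to 4.64 CPM (median 3.31) in 4OHT, log2 fold changes of 1.46 ± 0.21 and 2.06 ± 0.24 (SE). Both pairs of groups stood apart, at a level far below that of collagen I. COL11A1 rose by 0.34 and 0.35, from medians of 31.7 to 40.1 CPM and of 9.02 to 11.6 CPM.

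COL3A1, COL1A2, COL5A1 and COL5A2 responded differently to siSF3B1 in the 2 treatments, by the interaction test given with its values after the single genes. COL3A1 fell by 0.22 in DMSO, to a median of 4906 CPM, and rose by 0.86 in 4OHT, from 539 to 635 CPM to 962 to 1219 CPM (median 1075), without overlap. COL1A2 fell by 0.20 in DMSO and rose by 0.39 in 4OHT, from a median of 1338 to 1743 CPM. COL1A1 had medians of 26920 CPM in DMSO siSF3B1 and 6381 CPM in 4OHT siSF3B1, with adjusted p of 0.66 and 0.74. COL5A2 rose by 0.56 in 4OHT (0.05 in DMSO, adjusted p = 0.50), and COL5A1 fell by 0.30 and by 0.92.

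FACIT collagens fell in uninduced cells: 6 of 8 in DMSO and 1 of 8 in 4OHT. COL14A1 went from 70.7 to 88.1 CPM to 28.1 to 41.5 CPM (median 35.9) in DMSO, a fall of 1.17 on the log2 scale, while its medians in 4OHT were 1.39 and 1.20 CPM. COL21A1 fell by 0.95 in DMSO and rose by 1.31 in 4OHT, from 0.147 to 0.431 CPM (median 0.286) to 0.463 to 0.838 CPM (median 0.685). COL16A1 fell under both treatments, by 0.67 and 0.30.

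Of the 12 genes higher in 4OHT siNT than in DMSO siNT, COL27A1, COL17A1, COL7A1, COL5A3, COL8A1 and COL6A2 fell after siSF3B1 in 4OHT. COL8A1 and COL6A2 were not called lower with both siSF3B1 siRNAs. COL27A1 went from 141 to 158 CPM (median 149) to 58.9 to 80.3 CPM (median 72.1), a log2 fold change of −1.08 ± 0.09 (SE). COL17A1 went from 0.566 to 0.865 CPM (median 0.748) to 0.211 to 0.493 CPM (median 0.271), a fall of 1.27. COL7A1 fell by 0.51 under both treatments, COL5A3 by 0.77 in 4OHT and COL8A1 by 0.29 in 4OHT. COL10A1, COL19A1 and COL22A1 had log2 fold changes of 0.25, 0.10 and −0.04 in 4OHT and passed no test.

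A test of the difference between treatments, the interaction of siSF3B1 with 4OHT, was passed by 18 of 33 collagen genes (54.5%, beside 35.3% of all genes), with the effect higher in 4OHT for 14 and lower for 4. The largest positive terms were COL21A1 with 2.26, COL3A1 with 1.09, COL14A1 with 0.91 and COL8A2 with 0.82 on the log2 scale. The 4 negative ones were COL27A1 with −0.92, COL5A1 with −0.62, COL8A1 with −0.36 and COL4A2 with −0.25. COL21A1, COL14A1 and COL8A2 were near the floor in 4OHT, with 84, 447 and 47 counts summed over the 4OHT siNT libraries. In 4OHT siSF3B1 they had 197, 347 and 43 counts, so their terms rest on few counts there. COL13A1 and COL11A2 had terms of −0.07 and 0.60 with adjusted p of 0.82 and 0.15.

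Knockdown of RBM39 moved fewer collagen genes. In DMSO, 6 of 33 rose and 11 fell (18.2% and 33.3%, beside 21% and 22.6% of all genes), and in 4OHT 12 rose and 7 fell (36.4% and 21.2%, beside 30.8% and 23.1%). The median log2 fold changes of the collagen genes were 0.11 and 0.14 (0.0024 and 0.14 over the 25 with at least 10000 counts), those of all genes 0.01 and 0.06. Without DMSO siRBM39-06 replicate 1, 17 genes were again called in DMSO, with COL14A1 lost (−0.21 to −0.18) and COL5A2 gained (0.13 to 0.16), and of the single exons COL18A1 exon 17 lost its call. Called in one direction with both siRBM39 siRNAs were 4 rises and 7 falls in DMSO and 7 rises and 4 falls in 4OHT. Agreement was not counted over all genes here either. With siRBM39-06 alone 3972 of all 13175 genes rose and 3767 fell in DMSO, and 3624 and 3836 in 4OHT. With siRBM39-08 alone the numbers were 2659 and 2640, then 4018 and 2966.

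The 2 siRBM39 siRNAs differed for collagen I. COL1A1 fell by 0.85 in DMSO and 0.97 in 4OHT with siRBM39-06, whereas siRBM39-08 gave 0.07 (not called) and a rise of 0.21. Over both siRNAs COL1A1 ranged from 13370 to 27840 CPM (median 20250) in DMSO and from 3071 to 8262 CPM (median 4976) in 4OHT, wide ranges that passed no test. The 8262 CPM belonged to siRBM39-08 replicate 4. Without that library COL1A1 stood at −0.38 over both siRNAs in 4OHT and was called. The values of siRBM39-08 alone in 4OHT include the library and were not computed without it. COL1A2 fell by 0.28 in DMSO, from a median of 13810 to 9730 to 12620 CPM (median 11400), and in 4OHT by 0.11 with siRBM39-06 but rose by 0.35 with siRBM39-08. COL3A1 fell by 0.24 in DMSO, to 4517 to 5219 CPM (median 4879), and in 4OHT rose by 0.19 over both siRNAs, to 567 to 849 CPM (median 632), with values of −0.015 for siRBM39-06 and 0.34 for siRBM39-08.

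The short-chain collagen COL8A1 fell after siRBM39 under both treatments. It went from 150 to 163 CPM (median 159) to 97.1 to 130 CPM (median 117) in DMSO, and from 279 to 295 CPM (median 289) to 116 to 187 CPM (median 138) in 4OHT, log2 fold changes of −0.45 ± 0.09 and −0.92 ± 0.09 (SE). COL13A1 fell by 1.73 in 4OHT, to 9.06 to 14.5 CPM (median 10.1), with −1.76 and −1.74 for the 2 siRNAs. In DMSO it fell by 1.19 with siRBM39-08 and stood at −0.08 with siRBM39-06.

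COL15A1 fell by 0.70 in DMSO, to 93.2 to 157 CPM (median 129), and COL6A3 by 0.34, from 9874 to 11500 CPM (median 10090) to 7396 to 9814 CPM (median 7613). COL4A6 fell by 0.45 and 0.71, with 4OHT siRBM39 at 23.9 to 39.9 CPM (median 36.6) against 54.7 to 63.2 CPM (median 58.1) in 4OHT siNT. Both COL4A6 and COL8A1 were thus lower with either splicing factor reduced in 4OHT. COL4A6 was called lower there with both siSF3B1 siRNAs, and COL8A1 was not.

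Among the genes that rose, COL11A2 led again, with 3.47 to 5.91 CPM (median 3.92) in DMSO siRBM39 and 1.65 to 6.61 CPM (median 2.18) in 4OHT siRBM39, log2 fold changes of 0.98 ± 0.21 and 1.70 ± 0.24 (SE) without overlap. The highest of these values, 6.61 CPM, belonged to siRBM39-08 replicate 4. COL21A1 rose by 1.30 in 4OHT, to 0.501 to 0.788 CPM (median 0.695), and COL24A1 by 0.41 and 0.82. COL4A1 rose by 0.54 in DMSO, to 1129 to 1615 CPM (median 1372), and by 0.36 in 4OHT, where its median was 2615 CPM.

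COL5A1 had opposite signs by treatment after siRBM39, with a rise of 0.18 in DMSO, from 1461 to 1536 CPM (median 1512) to 1556 to 1862 CPM (median 1665), and a fall of 0.21 in 4OHT. The interaction of siRBM39 with 4OHT was passed by 8 of 33 collagen genes (24.2%, beside 12.9% of all genes), 5 with a higher and 3 with a lower effect in 4OHT. The terms were 1.07 for COL21A1, 0.52 for COL15A1, 0.43 for COL1A2, 0.43 for COL3A1, 0.41 for COL24A1, −0.39 for COL5A1, −0.47 for COL8A1 and −1.18 for COL13A1. That of COL21A1 rests on few counts, 84 summed over the 4OHT siNT and 213 over the 4OHT siRBM39 libraries.

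Without siRBM39-08 replicate 4, the calls of COL9A2 (0.54 to 0.30), COL16A1 (0.30 to 0.10), COL4A2 (0.16 to 0.11) and COL1A2 (0.15 to 0.13) in 4OHT siRBM39 were lost, and COL1A1 (−0.38), COL5A3 (−0.27) and COL12A1 (0.27) were called. The interaction was then passed by 14 genes (42.4%), beside 21.7% of all genes. This library had the highest COL6A2 of its group, 15100 CPM against a median of 6149 CPM, and the lowest COL6A3, 3389 CPM against a median of 5425 CPM.

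Collagens I, IV, V and VI are built from chains of different genes, and the ratio of those chains shifted with the conditions. The ratio was taken between cRPKM values within each library and is a description, since the pairs were chosen with the single genes known. COL1A1 to COL1A2 stood at 1.42 to 1.67 (median 1.49) in DMSO siNT, 3.46 to 3.87 (median 3.74) in 4OHT siNT and 2.82 to 3.03 (median 2.98) in 4OHT siSF3B1. COL5A1 to COL5A2 stood at 0.800 to 0.842 (median 0.820), 3.20 to 3.54 (median 3.35) and 1.14 to 1.26 (median 1.23) in the same groups. For both pairs the ratio was higher in 4OHT siNT than in any DMSO siNT library, and 4OHT siSF3B1 lay between the 2. The medians of 4OHT siRBM39, 2.565 and 2.344, lay between as well. Its ranges, 1.955 to 4.059 and 2.152 to 3.338, overlapped those of 4OHT siNT. Both upper ends belonged to siRBM39-08 replicate 4. Without that library the highest values were 3.289 and 2.777, below every library of 4OHT siNT. In DMSO the medians were 1.796 and 0.635 with siSF3B1 and 1.461 and 0.834 with siRBM39, each with overlap of DMSO siNT. There the 2 siRNAs of a target stood apart, and each median lies between them. COL1A1 to COL1A2 was 1.914 to 2.086 with siSF3B1-13 and 1.602 to 1.685 with siSF3B1-16. With siRBM39-06 it was 1.057 to 1.27 and with siRBM39-08 1.68 to 1.773. COL5A1 to COL5A2 was 0.7581 to 0.8767 and 0.5168 to 0.5323, then 0.8621 to 1.053 and 0.7471 to 0.8066, in the same order.

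The ratio of COL4A1 to COL4A2 went from a median of 0.649 in DMSO siNT to 1.06 in 4OHT siNT. It stood at 1.36 in 4OHT siSF3B1 and at 1.34 in 4OHT siRBM39, the latter with overlap of 4OHT siNT. The overlap came from siRBM39-08 replicate 4 at 0.568. Without that library 4OHT siRBM39 ranged from 1.285 to 1.429, above the highest 4OHT siNT value of 1.1. The ratio of COL6A1 to COL6A3 went from 1.75 in DMSO siNT to 3.18 in 4OHT siNT. COL6A1 to COL6A2 moved less, from 1.13 to 0.879. COL4A5 to COL4A6 stood at 4.62 in DMSO siNT and 3.48 in 4OHT siNT, with 2.74 when SF3B1 and 5.004 when RBM39 was reduced in 4OHT, so the medians of the 2 knockdowns lay on opposite sides of 4OHT siNT.

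**Figure D3:**
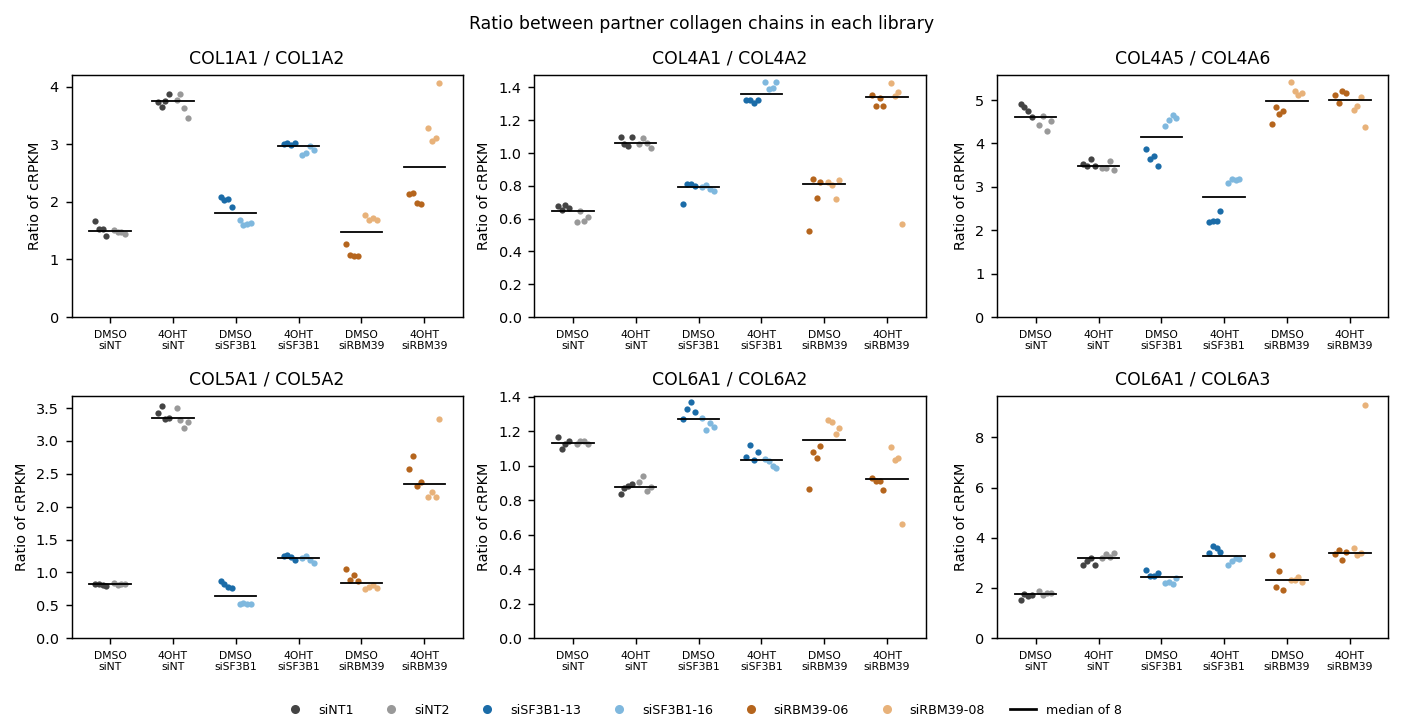
Ratio of the cRPKM values of 2 collagen chains in each library (points, linear axis from 0), by group, one panel per pair, with medians of 8 as lines and siRNAs in colours. The COL5A1 to COL5A2 ratio has medians of 0.820 in DMSO siNT, 3.35 in 4OHT siNT and 1.23 in 4OHT siSF3B1.

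COL4A1 and COL4A2 start 127 bases apart on opposite strands of chromosome 13, and COL4A5 and COL4A6 start 380 bases apart on opposite strands of chromosome X (RefSeq, GRCh38.p14). Promoter sequences of 24 of the 33 genes were matched, and COL1A1, COL1A2 and COL3A1 were not among them. The stretch between the COL4A1 and COL4A2 starts is shown because 2 genes with a changing ratio share it. It is written on the strand of COL4A2, with CCAAT and GGGCGG in capitals, at chr13:110307158-110307283.
COL4A1-COL4A2: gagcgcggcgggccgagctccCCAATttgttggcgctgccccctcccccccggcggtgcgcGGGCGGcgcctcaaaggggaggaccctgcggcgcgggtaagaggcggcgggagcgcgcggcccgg
In the 250 bases before the start, on either strand, CCAAT was found in 7 of 24 collagen promoters (29.2%) and 33% of 27305 promoters, GGGCGG in 15 (62.5%) and 42.3%, and TATAAA in COL6A2, COL13A1 and COL17A1 (12.5%) and 7.17%. Among the 9251 promoters of tested genes these letters stood in 34.8%, 67.1% and 3.37%. A match is a description of the letters and not a site.

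Genes that make, fold, cut, link and bind collagen changed in both directions after RAS activation, where 37.1% of all genes rose and 40.4% fell. Of 22 genes for folding and modification 10 rose and 9 fell. PLOD2, a lysyl hydroxylase, rose by 1.82 on the log2 scale, TMEM38B, an ER ion channel, by 1.88 and P4HA1, a prolyl hydroxylase subunit, by 1.06, while the galactosyltransferase gene GLT25D2 fell by 1.98 and SERPINH1, the collagen chaperone, by 0.87. Of 12 genes for procollagen cleavage and crosslinking 3 rose and 9 fell. The risers were the proteinase genes TLL2 with 2.45, ADAMTS3 with 1.90 and ADAMTS14 with 1.87, and PCOLCE, an enhancer of procollagen cleavage, fell by 2.90 and the lysyl oxidase genes LOX and LOXL3 by 1.13 and 2.84. The 8 receptors divided into the 4 risers ITGA1 (1.61), ITGA2 (1.60), ITGB1 (0.59) and ITGA11 (0.38) and the 4 that fell, ITGA10 (−1.58), DDR2 (−1.18), DDR1 (−0.94) and MRC2 (−0.16).

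After siSF3B1, 12 of the 22 folding genes rose and 4 fell in DMSO, and 9 rose and 9 fell in 4OHT. The 4 that fell in DMSO were the prolyl 3-hydroxylase LEPRE1 (−0.80), its relative LEPREL4 (−0.78) and the genes for procollagen export MIA3 (−0.74) and SEC24D (−0.44), and LEPREL1 rose most (0.99). Of the 12 cleavage and crosslinking genes 1 rose and 5 fell in DMSO and 1 rose and 7 fell in 4OHT, with ADAMTS14 at −1.40 and −2.35. The receptors gave 2 rises and 4 falls in DMSO and 1 rise and 6 falls in 4OHT.

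TGF-beta signalling, the best known inducer of collagen genes in fibroblasts, was represented by 13 genes. Of these 6 rose and 6 fell with RAS, with SMAD7 highest at 1.36 and CTGF lowest at −1.47. After siSF3B1 12 rose and 1 fell in DMSO, and 10 rose and 3 fell in 4OHT, with CTGF at 0.98 and 1.28, SKIL at 0.90 and 1.04, TGFBR1 at 0.30 and 1.36, and TGFB3 at −0.94 and −0.75. The background shares of the siSF3B1 comparisons are those given above.

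After siRBM39, 10 of the 22 folding genes rose and 5 fell in DMSO (all genes 21% and 22.6%) and 7 rose and 5 fell in 4OHT (all genes 30.8% and 23.1%), with LEPRE1 at −0.59 and −0.66. The cleavage and crosslinking genes gave 2 rises and 2 falls, then 2 rises and 5 falls, with ADAMTS14 at −1.85 in 4OHT. The receptors gave 1 rise and 4 falls, then 2 rises and 4 falls. The TGF-beta genes gave 3 rises (TGFB1 0.38, SMAD7 0.21 and SKI 0.10) and 0 falls in DMSO by edgeR, then 6 rises and 3 falls in 4OHT, with TGFB1 at 0.46.

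The exons of collagen genes have their own pattern of lengths. The event table listed 1533 exons and 1468 introns of the collagen genes, and 547 exons and 611 introns of 18 genes reached the minimum coverage in all 48 libraries. Of the 547 exons, 61.6% had a length that is a multiple of 9 and 22.1% were 54 nt long, beside 14.1% and 0.97% of 24756 exons of all genes. Their median length was 72 nt, against 116 nt for all genes. Multiples of 3, which keep the reading frame when the exon is skipped, made up 82.5% and 40.7%.

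**Figure D4:**
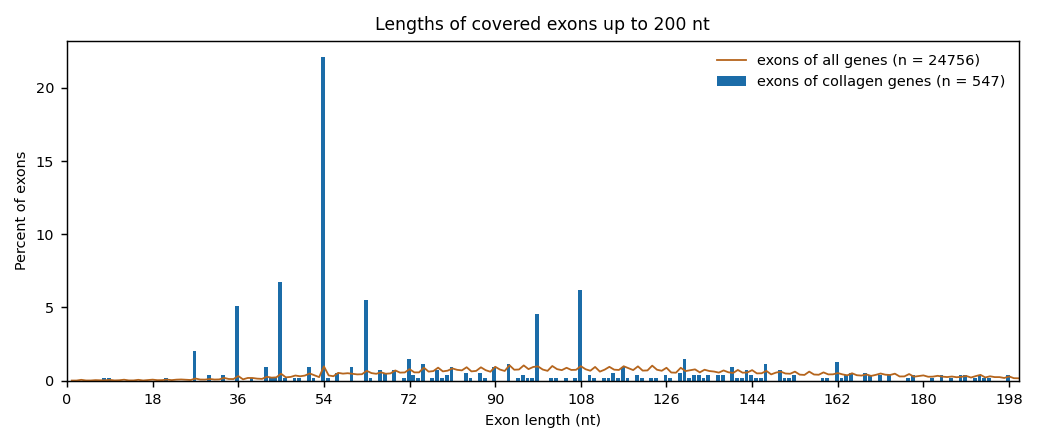
Percent of covered exons at each length up to 200 nt, for the 547 exons of collagen genes and the 24756 exons of all genes. The collagen exons (bars) peak at 54 nt with 22.1%, with smaller peaks at other multiples of 9, while the exons of all genes (line) stay close to 1% or below at each length.

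Most covered collagen exons moved by less than 5 points of percent spliced-in (PSI, the share of transcripts that hold the exon). After siSF3B1 the mean PSI of 6 of 547 covered exons (1.10%) was lower by at least 5 points in DMSO and of 9 (1.65%) in 4OHT, where all genes gave 8.18% and 9.21% of exons. After siRBM39 the numbers were 4 (0.731%) and 5 (0.914%), beside 2.58% and 2.95%. Exons of 54 nt were lower by at least 1 point in 9 of 121 cases under either treatment after siSF3B1, and in 1 of 121 after siRBM39. That is 7.44% after siSF3B1, beside 5.56% (DMSO) and 8.8% (4OHT) of exons at other multiples of 9 and 6.67% and 10% of the remaining exons. These shares are descriptions of exons that share genes and libraries.

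Of the 547 exons, 49 varied by at least 5 PSI points and went into the limma test of logit values, a call needing an adjusted p under 0.05 and a difference of at least 5 points. RAS activation gave 3 calls (6.12%, beside 1.6% of the 7673 exons tested in all genes), siSF3B1 8 in DMSO (16.3%, beside 26.8%) and 10 in 4OHT (20.4%, beside 30%), and siRBM39 6 in DMSO (12.2%, beside 8.26%) and 7 in 4OHT (14.3%, beside 9.34%). Single exons were also compared by a two-sided exact permutation test over the splits of 8 against 8 libraries, whose smallest possible p is 0.000155. The calls fell to 6 genes or fewer in each comparison.

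The exons with the largest change in collagen genes were a pair in COL5A1 that stand in place of one another in different transcripts, called here the upstream and the downstream exon by their order in the gene.

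The upstream exon was included at 18.4 to 24.5 PSI (median 20.4) in DMSO siNT and at 30.8 to 38.5 PSI (median 31.8) in 4OHT siNT. Reduction of SF3B1 brought it to 33.2 to 40.8 PSI (median 35.8) in DMSO and 51.1 to 63.3 PSI (median 53.3) in 4OHT. With RBM39 reduced it stood at 37.6 to 53.3 PSI (median 46.1) in DMSO and 56.3 to 72.0 PSI (median 64.2) in 4OHT. The upstream exon thus rose in all 5 comparisons, by 11.9 ± 1.3, 15.04 ± 1.3, 21.3 ± 1.7, 24.1 ± 1.9 and 31.7 ± 2.0 points (SE, n = 8 against 8) for RAS, siSF3B1 in DMSO, siSF3B1 in 4OHT, siRBM39 in DMSO and siRBM39 in 4OHT. No pair of groups overlapped, and the exact permutation p was 0.000155 in each.

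The downstream exon mirrored it. Its range was 68.7 to 78.5 PSI (median 73.5) in DMSO siNT, and in 4OHT it went from 57.4 to 64.8 PSI (median 59.1) with siNT to 31.9 to 44.8 PSI (median 36) with siSF3B1 and 24.8 to 40.5 PSI (median 27) with siRBM39. In DMSO it had medians of 54.7 PSI with siSF3B1 and 48.1 PSI with siRBM39. The falls were 13.1, 18.4, 23.1, 24.8 and 31.3 points in the same order, and the PSI values of both exons summed to medians of 90.0 to 94.4 in the 6 groups. The majority form of uninduced cells, with the downstream exon, was the minority form in both knockdown groups in 4OHT.

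COL1A1 held 1 exon that was called in both siSF3B1 comparisons and in no other. It is exon 34 of 51, 54 nt long, and codes for 18 residues with glycine first in each triplet, shown with the glycine codons in capitals (GRCh37, minus strand, chr17:48267904-48267957).
COL1A1 exon 34: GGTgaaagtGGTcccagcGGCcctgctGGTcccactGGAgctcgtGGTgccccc
Its range was 99.6 to 100 PSI in DMSO siNT and 99.8 to 100 PSI in 4OHT siNT, and 85.8 to 91.2 PSI (median 89.2) in DMSO siSF3B1 and 81.1 to 87.3 PSI (median 83.7) in 4OHT siSF3B1. The differences were −10.9 ± 0.6 and −16.1 ± 0.8 points (SE, exact permutation p = 0.000155 each), over a median of 6164 and 1519 reads per library. After siRBM39 the medians were 99.9 and 100 PSI. Skipping of this exon takes whole glycine triplets out of the chain and keeps the frame.

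Other exons with the same spacing of glycine codons also fell after siSF3B1. Each is shown with glycine codons in capitals (GRCh37, minus strand for COL6A3 at chr2:238265981-238266034 and for COL12A1 at chr6:75804824-75804895, plus strand for COL27A1 at chr9:117045989-117046042).
COL6A3 exon 23: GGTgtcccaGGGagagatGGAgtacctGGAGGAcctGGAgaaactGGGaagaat
COL12A1 exon 60: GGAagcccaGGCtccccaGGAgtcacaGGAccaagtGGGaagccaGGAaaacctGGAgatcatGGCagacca
COL27A1 exon 40: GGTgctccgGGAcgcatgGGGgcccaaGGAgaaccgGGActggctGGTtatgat
The COL6A3 exon was at 100 PSI in all 8 libraries of 4OHT siNT and at 91.1 to 93.7 PSI in 4OHT siSF3B1, a difference of −7.88 points, and fell by 4.49 points in DMSO, below the 5 points of a call. The COL12A1 exon went from 96.6 to 100 PSI to 78.9 to 89.5 PSI (median 87.8) in 4OHT, a fall of 12.7 points. The COL27A1 exon went from 100 PSI in all libraries to 72.1 to 100 PSI (median 94.9), a difference of −7.71 points with overlap, over a median of 58 reads.

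Exons without that spacing of glycine codons were among the calls too. In COL12A1, exon 62 (67 nt) fell by 11.3 points in 4OHT siSF3B1, to 75.9 to 98.3 PSI from 100 PSI, and exon 30 (21 nt) by 6.21 points in DMSO and 5.35 points in 4OHT, while exon 13 (273 nt) rose by 10.3 points in DMSO siSF3B1 and by 14.6 points in DMSO siRBM39. Exon 68 of COL16A1, also 67 nt, fell by 12.9 points in DMSO siSF3B1, from 100 PSI in every DMSO siNT library to 79.8 to 95.6 PSI. In 4OHT siSF3B1 it fell by 5.43 points with overlap, called by limma but with an exact permutation p of 0.0769. COL27A1 exon 57 had differences of −5.06 and −8.87 points after siSF3B1 and COL18A1 exon 17 by 5.50 points in DMSO siSF3B1, by 6.22 points in DMSO siRBM39 and by 12.4 points in 4OHT siRBM39, each with overlap.

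**Figure D5:**
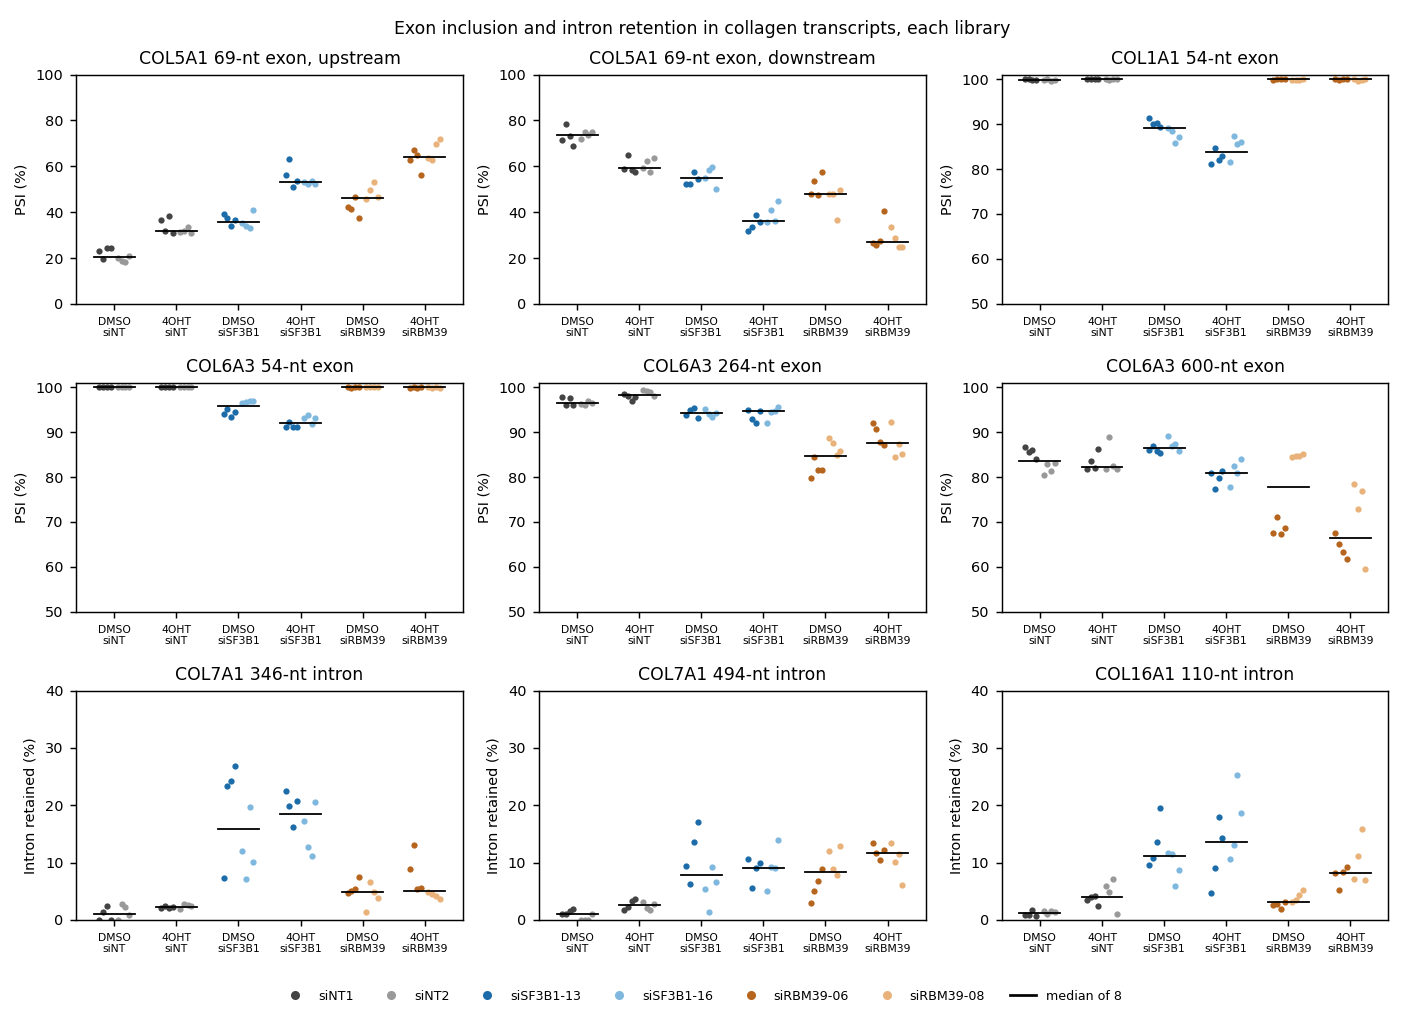
PSI in each of the 48 libraries (points, in percent) for 6 exons and 3 introns named in the text, by group, with medians of 8 as lines and the 2 siRNAs of a group in different colours. The axes of the COL1A1 and COL6A3 exons start at 50 and those of the introns end at 40. The COL5A1 pair moves in opposite directions, from medians of 20.4 and 73.5 PSI in DMSO siNT to 64.2 and 27 PSI in 4OHT siRBM39, and COL1A1 exon 34 is low in both siSF3B1 groups.

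Reduction of RBM39 was followed by changes in COL6A3, COL6A2 and COL4A5 exons. COL6A3 exon 41 (264 nt, GRCh37 chr2:238243269-238243532) went from 96.0 to 97.8 PSI (median 96.4) to 79.8 to 88.6 PSI (median 84.6) in DMSO and from 97.0 to 99.4 PSI (median 98.3) to 84.4 to 92.3 PSI (median 87.6) in 4OHT, differences of −12.4 and −10.01 points without overlap. COL6A3 exon 6 (600 nt, chr2:238287279-238287878) went from 81.7 to 88.8 PSI (median 82.2) to 59.6 to 78.4 PSI (median 66.3) in 4OHT, a fall of 15.3 points. In DMSO this exon stood at 67.4 to 71.1 PSI with siRBM39-06 and at 84.5 to 85.0 PSI with siRBM39-08, against 80.4 to 86.8 PSI in DMSO siNT, so there it was low with the first siRNA.

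COL6A2 exon 24 (46 nt, chr21:47545180-47545225, plus strand) is the third exon called with RAS. It went from 95.5 to 98.96 PSI (median 97.7) in DMSO siNT to 88.9 to 93.1 PSI (median 89.9) in 4OHT siNT, a fall of 7.19 points, and to 74.5 to 81.7 PSI (median 79.6) in 4OHT siRBM39, a further fall of 10.9 points. Neither pair of groups overlapped. A 9-nt exon of COL4A5 rose after siRBM39, from a median of 0.91 to 11.7 PSI in DMSO and from 1.32 to 20.2 PSI in 4OHT, with overlap and medians of 35.5 and 39.5 reads.

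Retained introns were called in COL7A1, COL16A1 and COL18A1. Of 35 collagen introns tested, 0 were called with RAS by limma (0.0953% of 5248 introns in all genes, and 7 of the 35 at an unadjusted p under 0.05), 3 after siSF3B1 in DMSO (8.57%, beside 11.1%), 5 in 4OHT (14.3%, beside 14.9%), and 1 each after siRBM39 in DMSO and in 4OHT (2.86% each, beside 2.06% and 2.08%). Each of these calls was a rise in retention.

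Intron 71 of COL7A1 (346 nt, GRCh37 chr3:48613336-48613681, minus strand) went from 0.0 to 2.78 PSI to 7.08 to 26.8 PSI (median 15.8) in DMSO siSF3B1, and from 1.95 to 2.70 PSI (median 2.35) to 11.2 to 22.5 PSI (median 18.6) in 4OHT siSF3B1. The rises were 15.1 ± 2.9 and 15.3 ± 1.4 points (SE, exact permutation p = 0.000155). Intron 16 of COL7A1 (494 nt, chr3:48627152-48627645) rose with either factor reduced, by 7.75 points in DMSO and 6.45 in 4OHT with siSF3B1 and by 7.33 and 8.53 points with siRBM39, in 4OHT from 1.66 to 3.6 PSI to 4.98 to 14.03 PSI with siSF3B1 and to 6.18 to 13.5 PSI with siRBM39. Intron 71 was also higher after siRBM39, by 3.76 points in DMSO with overlap and by 3.95 points in 4OHT without (limma adjusted p = 0.000541 and 0.0279), below the 5 points of a call. The last 60 bases of both introns, where the branch site and the acceptor lie, are shown with the AG of the acceptor in capitals.
COL7A1 intron 71: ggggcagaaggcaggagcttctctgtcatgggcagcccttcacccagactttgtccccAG
COL7A1 intron 16: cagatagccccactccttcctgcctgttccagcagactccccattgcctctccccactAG
Intron 3 of COL16A1 (110 nt, chr1:32165532-32165641) rose by 10.2 points in DMSO siSF3B1, from 0.63 to 1.72 PSI to 5.92 to 19.5 PSI, and by 10.1 points in 4OHT with overlap. Introns 22 and 23 of COL18A1 rose by 6.53 and 5.23 points in 4OHT siSF3B1, both with overlap between the groups. Their exact permutation p was 0.000622 and 0.0752, so intron 23 was called by limma alone.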

How the data were processed

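RNA of 48 samples was measured by RNA-seq. Alignment and quantification by the authors used vast-tools with the VAST-DB annotation named hg19. The deposited gene table holds raw, unnormalised counts and cRPKM, an RPKM corrected for mappable length. The authors also deposited PSI as a percent per splicing event and library, together with the read support, a score for coverage and a p-value for the balance of reads over intron ends. edgeR and limma are named in the submitters' processing notes, and a further deposited table of normalised CPM was not used. The event coordinates lay in GRCh38 (2998 of 3001 collagen events inside their gene, 55 in GRCh37), so events were placed in GRCh37 by the lengths of the exon and its flanking introns or exons. The study names a first-strand library setting for another aligner, and whether the counting by vast-tools used strand is not given in the sources used here, so reads of a collagen gene and an overlapping antisense gene cannot be told apart.

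Counts were tested in R 4.3.3 with edgeR 4.0.16 (quasi-likelihood test, TMM scaling, 1 mean for each of 6 groups) over the 13175 genes whose counts summed to 500 or more, with Benjamini-Hochberg adjustment over all of them. The 338 rows without counts stayed out. The paper's own gene filter, 10000 counts, was an alternative. Fold changes of genes near 0 depend on edgeR's prior count, so ratios of summed counts with exact 95% counting intervals are given for them. The SE of a log2 fold change is its size over the square root of the edgeR F statistic. It therefore rests on the spread in all 6 groups, whereas the SE of a PSI difference rests on the 2 groups compared. PSI was tested with limma 3.58.1 on the logit of 0.01 plus 0.98 times its fraction, over events scored VLOW or better in all 48 libraries that ranged over 5 points or more, and introns also needed a balance p not under 0.05. Groups came from the sample titles. For 4 libraries titled 4OHT siNT2 the treatment label names siNT1, and the title was used. The labels give 4 replicates per siRNA and treatment, and the methods name 3 for this experiment. The study describes in vitro replicates in general as independent experiments, the labels do not say which libraries are separate cultures, and p-values measure the spread between these libraries. Of 72 pairs of libraries of 1 siRNA and treatment, each differed by more than counting noise (chi-square per degree of freedom 1.89 to 448).

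The members and lists were chosen with earlier results of these data known. Each collagen gene is named. Ranges are given for COL1A1, COL1A2, COL3A1 and, in each comparison, for the 3 strongest rises and 3 strongest falls of those called without overlap of the groups, and of the other genes for some. Events are named by the same criterion, and other called events were added. Genes from the lists for folding, cleavage, receptors and TGF-beta signalling are named by the largest change in each direction, or all if 5 or fewer, and some more were added after their values were seen. Alternatives were limma-voom, DESeq2 1.42.0, its size factors in edgeR, other count minimums, only the groups compared, one group per siRNA, single siRNAs, a replicate block, each replicate number left out, 4OHT siRBM39-08 replicate 4 left out, DMSO siRBM39-06 replicate 1 left out (added after seeing the data) and, for PSI, other filters and limits. The gene test and the PSI test were tested on simulated data: in a simulation of the RAS comparison with 13175 genes, 17 unchanged ones were called, and of 100 each changed by the smaller and larger fold 92 and 100 were recovered. All other genes were left unchanged there. In the data 37.1% of genes rose and 40.4% fell with RAS, so scaling and false calls under so many changes were not tested. Plots used Python with matplotlib. No column of per-sample values lacked a sample. Some sequences and single gene values that these rules would name are not reported here.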

Additional observations from a re-analysis of the deposited data

Results flagged for a closer look

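Within groups of 8 libraries, the highest or lowest value was checked for a gap to the next that is large for the range (Dixon's 95% criterion) in 162 groups of values, from 21 genes and 6 splicing events. There were 20 such values (12.3%), where chance gives about 1 in 20. Of the 20, 8 belonged to 4OHT siRBM39-08 replicate 4. In CPM these were COL10A1 at 10.3, COL4A1 at 1405, COL4A5 at 103, COL4A6 at 23.9 and COL6A3 at 3389, each the lowest of the group, and COL11A2 at 6.61 and COL27A1 at 270.4, the highest. The eighth was COL7A1 intron 16, the lowest of the group at 6.18 PSI.

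DMSO siNT1 replicate 1 held 4 of them, with COL1A1 at 29280 CPM and COL6A3 at 11500 CPM as the highest and COL27A1 at 47.9 CPM and COL4A5 at 211.7 CPM as the lowest. 4OHT siSF3B1-13 replicate 2 had COL11A1 at 10.2 CPM, the lowest, and the upstream COL5A1 exon at 63.3 PSI, the highest. The others were COL17A1 at 0.219 CPM in DMSO siRBM39-06 replicate 1, COL19A1 at 0.0728 CPM in DMSO siNT2 replicate 2 and 4.39 CPM in 4OHT siNT2 replicate 3, COL1A2 at 12650 CPM in DMSO siSF3B1-16 replicate 2, COL4A1 at 1810 CPM in 4OHT siNT1 replicate 4 and COL1A1 exon 34 at 99.8 PSI in 4OHT siNT2 replicate 2.

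The effect of siSF3B1 differed between DMSO and 4OHT by the interaction test of edgeR for 18 genes. On the log2 scale, as the effect in 4OHT minus that in DMSO, the terms were 0.59 for COL1A2, 0.46 for COL6A3, 1.09 for COL3A1, −0.25 for COL4A2, 0.50 for COL12A1, −0.62 for COL5A1, 0.51 for COL5A2, −0.36 for COL8A1 and 0.41 for COL4A5. They were −0.92 for COL27A1, 0.64 for COL15A1, 0.63 for COL4A6, 0.91 for COL14A1, 0.73 for COL24A1, 0.79 for COL9A2, 0.76 for COL9A3, 0.82 for COL8A2 and 2.26 for COL21A1. The terms of COL14A1, COL8A2 and COL21A1 rest on few counts in 4OHT. Those of COL9A2 and COL9A3 do so too, with 359 and 244 counts over the 4OHT siNT libraries and 337 and 230 over the 4OHT siSF3B1 libraries. The effect of siRBM39 differed for 8 genes, with 0.43 for COL1A2, 0.43 for COL3A1, −0.39 for COL5A1, −0.47 for COL8A1, 0.52 for COL15A1, −1.18 for COL13A1, 0.41 for COL24A1 and 1.07 for COL21A1. The COL21A1 term rests on few counts in 4OHT here as well.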

How the results depend on the processing

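Of 137 called changes of single collagen genes, 135 kept their direction under every alternative run, and COL1A2 (−0.11) and COL3A1 (−0.015) turned from a rise to these log2 values in 4OHT siRBM39 with siRBM39-06 alone. All 44 called changes of exons and introns kept theirs. The call itself was lost under at least 1 alternative for 41 of the 137 and 12 of the 44. The number of collagen genes called in 4OHT siRBM39 went from 19 to 11 with siNT2 alone as control (all genes 53.9% to 39.7%) and ranged from 12 to 18 with replicates left out. The interaction of siSF3B1 went from 18 to 11 with siNT2 alone (all genes 35.3% to 23.9%). The interaction of siRBM39 went from 8 (all genes 12.9%) to 14 with one group per siRNA (25%), to 4 with siNT1 or siNT2 alone (4.55% and 5.55%), to 18 with siRBM39-06 alone (32.2%) and to 6 to 14 with replicates left out, where the highest count came without 4OHT siRBM39-08 replicate 4.

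Without a minimum PSI difference the calls among exons went from 8 to 25 and from 10 to 26 (siSF3B1 in DMSO and in 4OHT), and from 6 to 10 and from 7 to 11 (siRBM39), beside 51.4%, 55.5%, 15.8% and 16.3% of all exons, and among introns from 3 to 11, 5 to 16, 1 to 3 and 1 to 5, beside 40%, 49.2%, 7.47% and 6.92% of all introns. With at least 10 points, siSF3B1 had 5 exons under either treatment and 2 introns in 4OHT, and siRBM39 had 0 introns by limma. A LOW coverage score gave 5 exons for siSF3B1 in DMSO. PSI limited to 1 to 99 left 5 exons to test, of which 3 (siSF3B1 in DMSO), 2 (siSF3B1 in 4OHT) and 4 (siRBM39 in 4OHT) were called, and no intron. Without the balance filter 85 introns were tested, of which 3 (RAS), 19, 19, 11 and 14 were called, beside 0.748%, 24.3%, 29.7%, 6.82% and 7.28% of all introns. With siNT1 alone RAS had 1 exon. In 4OHT siRBM39 introns numbered 2 with siNT2 alone, 2 with siRBM39-06 alone, 3 with siRBM39-08 alone and 1 to 3 with replicates left out. The causes were not tested, apart from the number of events that each filter leaves.

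Replicate numbers did not pair the libraries: deviations from the group means of 264 same-numbered pairs had a median correlation of 0.00682 and 58 were over 0.1. With the replicate block 31, 23, 21, 16 and 18 genes were called in the 5 comparisons (31, 23, 21, 17 and 19 without), and 18 and 7 in the interactions (18 and 8 without), and the calls of exons and introns were the same in number. Few counts and few reads limit the precision of genes such as COL19A1 and of exons such as that of COL27A1.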

Other observations

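Several collagen genes differed between the 2 siRNAs of a target, by edgeR with each siRNA alone against all 8 siNT libraries. COL5A3 rose by 0.68 on the log2 scale with siRBM39-06 and fell by 0.27 with siRBM39-08 in DMSO, and COL5A2 fell by 0.16 with siSF3B1-13 and rose by 0.24 with siSF3B1-16 in DMSO. COL15A1 fell with both siRBM39 siRNAs in DMSO, by 1.00 and 0.42. These genes and COL1A1 and COL1A2 were picked after their values were seen, and the difference between siRNAs was not tested.

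Of 8 fibroblast markers, 1 rose and 4 fell after siSF3B1 in DMSO, 3 rose and 3 fell in 4OHT, 3 rose and 2 fell after siRBM39 in DMSO, and 3 rose and 1 fell in 4OHT. DCN, the small proteoglycan that binds collagen I, stood at 0.04, 0.43, 0.16 and 0.00 in these comparisons on the log2 scale. PDGFRB fell by 1.28 in 4OHT siSF3B1.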
